A study of Mus musculus with 6 samples.

Results

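The replication-dependent histone genes of the mouse were examined in oocyte RNA of control mice and of mice given anti-Müllerian hormone (AMH), a TGF-beta family hormone of granulosa cells. Members were the protein-coding rows of the count table whose symbol starts with Hist1h, Hist2h, Hist3h or Hist4h, and 67 of 54532 rows met that rule. They comprised 6 H1, 18 H2A, 18 H2B, 12 H3 and 13 H4 genes. A further 3 rows of the same naming were pseudogenes and were set aside. The control group was 3 libraries and the AMH group was 3 libraries, all from oocytes of C57BL/6J mice aged 6 to 7 weeks, with no genetic modification named. The AMH mice received daily intraperitoneal injections of 300 ng of recombinant mouse AMH made in E. coli, beginning at 21 days of age. The labels do not give the number or stage of the oocytes, the removal of cumulus cells, an injection of the controls, or whether each library came from separate animals. The p-values therefore reflect the spread among the 6 libraries, which could be technical in part or in whole. Per its title, the series is about AMH and the quality of oocytes.

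Core histones H2A, H2B, H3 and H4 form the protein spool of the nucleosome, and linker histone H1 binds the DNA between nucleosomes. Replication-dependent genes supply most of these proteins to dividing cells during S phase. Their mRNAs are unusual because most end at a short RNA hairpin, the histone stem-loop, which is bound by the protein SLBP, and not at a poly(A) tail. Growing and fully grown oocytes do not replicate DNA and store histone proteins and mRNAs for the embryo, together with replacement histones such as the oocyte linker histone H1foo. The libraries measured here were made from RNA taken with poly-T beads, which capture polyadenylated RNA.

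The stem-loop is the sequence that sets these mRNAs apart, so its forms are shown for 9 members that recur in the results. A search of the GENCODE M21 transcripts (GRCm38) looked for 16 bases that open with GG, in which the first 6 bases pair with the last 6 around a loop of 4 bases opening with TT. At most 1 mismatch was allowed. Each line gives the stem-loop in capitals with 5 bases on either side, 5′ to 3′ on the gene's strand, written as DNA.
Hist1h1c: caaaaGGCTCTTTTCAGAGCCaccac
Hist1h1e: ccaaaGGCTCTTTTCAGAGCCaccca
Hist1h2ao: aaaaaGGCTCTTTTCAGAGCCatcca
Hist1h2ab: acaaaGGCTCTTTTCAGAGCCaccca
Hist1h3d: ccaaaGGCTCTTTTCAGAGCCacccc
Hist1h3e: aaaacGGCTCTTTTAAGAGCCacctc
Hist1h4d: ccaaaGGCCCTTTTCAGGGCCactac
Hist1h4i: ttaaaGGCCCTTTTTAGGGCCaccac
Hist2h4: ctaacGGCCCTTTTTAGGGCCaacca
The capitals lie at chr13:23739512-23739527 for Hist1h1c, chr13:21810898-21810913 for Hist1h2ao and chr13:23581950-23581965 for Hist1h4d on the plus strand, and at chr3:96262939-96262954 for Hist2h4 on the minus strand. All lie after the stop codon, in the 3′ untranslated part of the exon.

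A stem-loop was found in 44 of the 67 members (65.7%), and all 44 stems were perfect. Among 21799 other protein-coding genes, 0.381% held a perfect one and 5.73% one with at most 1 mismatch anywhere in the longest transcript. It began 21 to 58 bases after the stop codon, with a median of 31. The form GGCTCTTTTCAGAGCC was carried by 26 members, from H1, H2A, H2B and H3 genes. The form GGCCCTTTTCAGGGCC was carried by 7 members, all H4 genes. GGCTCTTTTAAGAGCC was found in 6 members, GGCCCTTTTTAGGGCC in 2 (Hist1h4i and Hist2h4), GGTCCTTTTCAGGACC in 2 (Hist1h4b and Hist1h4j) and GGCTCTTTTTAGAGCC in 1 (Hist2h2ac). Of the 23 members without a stem-loop, 13 have gene models that stop at the stop codon, so no match there says only that the letters are not in the model.

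The annotated transcript often continues beyond the stem-loop. In 22 members it ran on for at least 100 bases, as in Hist1h1c with 840 bases, Hist1h1e with 1153 and Hist1h4d with 770. In the other 22 members with a stem-loop it stopped sooner, as in Hist1h2ao with 31 bases. The median count over the 6 libraries was 200.5 in the members that ran on, 22 in those that stopped sooner and 24 in the 23 members without a stem-loop. Across the 44 members with a stem-loop, Spearman's rho between bases past the stem-loop and total count was 0.384, as a description over genes that share libraries. Longer models also collect more reads. The hexamers AATAAA or ATTAAA, which mark poly(A) sites, lay within the last 40 bases of the transcript in 25.4% of members and in 70.2% of other protein-coding genes.

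**Figure D1:**
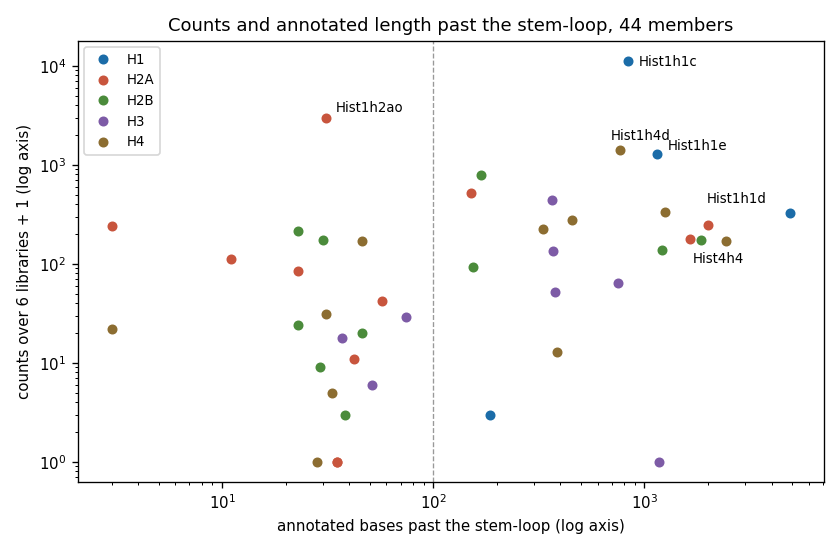
Total counts over the 6 libraries (plus 1, log axis) against the annotated bases past the stem-loop (log axis) for the 44 members with a stem-loop, coloured by class. Members to the right of the dashed line at 100 bases had a median of 200.5 counts and those to the left 22, while Hist1h2ao stands out on the left with 31 annotated bases.

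Promoters were read from the RefSeq table of GRCm38.p6, which covers 250 bases before to 50 after each gene's start, and 62 members matched. The letters CCAAT, on either strand, lay in 85.5% of the members' windows and in 37.4% of all 32851 windows. TATAA lay in 79% of the members' windows against 24.9%, and TTTGCAT, the core of the octamer known from H2B promoters, in 22.6% against 4.63%. The classes differed: CCAAT was found in 3 of 12 H4 windows and in every window of the other classes that matched, whereas TATAA was found in 11 of 12 H4 windows. The 250 bases before the start are shown for Hist1h2aa and Hist1h1c, which had the highest levels per length, and for Hist1h4d, the highest H4 gene. Capitals mark the motifs on either strand, and adjoining motifs run together.
Hist1h2aa, chr13:23934187-23934436, plus strand: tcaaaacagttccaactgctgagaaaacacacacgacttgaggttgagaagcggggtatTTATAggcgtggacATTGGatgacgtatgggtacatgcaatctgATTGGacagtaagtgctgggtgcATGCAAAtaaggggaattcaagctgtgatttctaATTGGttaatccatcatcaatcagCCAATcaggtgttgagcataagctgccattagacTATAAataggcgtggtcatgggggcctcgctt
Hist1h1c, chr13:23738557-23738806, plus strand: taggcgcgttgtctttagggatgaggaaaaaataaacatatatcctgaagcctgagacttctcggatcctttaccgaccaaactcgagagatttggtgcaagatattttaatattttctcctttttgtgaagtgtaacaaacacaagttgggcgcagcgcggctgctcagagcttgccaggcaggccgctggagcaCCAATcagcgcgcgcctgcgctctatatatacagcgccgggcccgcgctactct
Hist1h4d, chr13:23581318-23581567, plus strand: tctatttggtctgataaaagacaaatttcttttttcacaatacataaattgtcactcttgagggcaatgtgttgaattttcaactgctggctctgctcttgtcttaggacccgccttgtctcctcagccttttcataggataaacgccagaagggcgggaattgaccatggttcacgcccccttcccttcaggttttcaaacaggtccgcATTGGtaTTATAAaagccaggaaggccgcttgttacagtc

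Count totals were 66392859 to 72109080 per library. Libraries of the same label did not always resemble each other most: the closest pair over all genes was control 3 with AMH 3. Summed cumulus and granulosa markers (17 of 17 detected) were 533, 320 and 2920 CPM (counts relative to the TMM-scaled library size) in controls 1, 2 and 3, against 2553 to 2915 in the AMH libraries. Control 3 is thus apart from the other controls. Summed oocyte markers, 15 of 15 detected and led by Gdf9, were 17580 to 23473 CPM in control and 10283 to 17343 in AMH libraries. Oviduct epithelium markers (8 of 8 detected) were 21.1 to 171 CPM in control and 140 to 722 in AMH libraries, and macrophage markers (9 of 9) 14.2 to 36.2 and 80.7 to 111 CPM. Erythroid markers (7 of 7) were 1.11 to 5.64 and 22.8 to 357 CPM, highest in AMH 1, with Slc4a1 at 0 in all controls. Theca and stroma markers (10 of 11, Insl3 at 0 in all libraries) were 13 to 96 and 54.3 to 160 CPM. Star held 72.1% of that sum, and of 8 tested theca and stroma genes 5 had positive and 3 negative fold changes. Endothelial markers (6 of 7, Emcn at 0 in all libraries) were 205 to 246 and 115 to 198 CPM. Pecam1 held 74.3% of that sum, and of 5 tested endothelial genes 4 had negative fold changes and 1, Cdh5, a positive one (log2 1.48). In bulk libraries such as these, fewer cells of a type and less RNA per cell cannot be told apart.

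The members were a very small part of these libraries. They held 0.00545, 0.00465 and 0.00389% of the counts in controls 1, 2 and 3 against 0.016, 0.0116 and 0.00658% in AMH 1, 2 and 3. The AMH libraries were all above the controls, and AMH 3 was the nearest to them. Of the 67 members, 60 had a count in at least 1 library. The 7 without any count were Hist2h2ab, Hist2h2aa1, Hist2h2aa2, Hist2h3c1, Hist2h3b, Hist2h2bb and Hist1h4b, for which 3 counts over the 6 libraries give an upper limit of 0.00718 CPM, for counting error only. The median share of their 50-base words held in common with another gene was 79.7%, and the limit does not hold where reads matching several genes were left uncounted. Of these 7, 6 lie in the Hist2 cluster of chromosome 3. The 5 highest members together held 71.2% of the members' CPM, and 11 members reached a mean of 1 CPM.

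Summed over all members, the level was 60.9, 52.1 and 41.2 CPM in controls 1, 2 and 3 against 137, 101 and 66.6 CPM in AMH 1, 2 and 3. The groups did not overlap, with 51.4 ± 9.85 CPM in control libraries against 101 ± 35.1 CPM with AMH (SD, n = 3 each), a ratio of 1.97. Much of this came from the linker histone gene Hist1h1c, which held 32.8% of the members' CPM over the 6 libraries. Its share of the members' counts ran from 7.54% in control 2 to 46.7% in AMH 1. Without Hist1h1c the sums were 41.6 ± 8.96 and 61.1 ± 10.9 CPM (SD, n = 3 each), a ratio of 1.47, still with no overlap. With control 3 and AMH 3 set aside the ratio of all members was 2.1, and AMH 3 over control 3 alone gave 1.62. The cumulus, theca and stroma, oviduct, macrophage and erythroid marker sums were also higher in AMH 1 and AMH 2 than in controls 1 and 2, and the macrophage and erythroid sums were higher in AMH 3 than in every control. Their part in the members' sums was not tested.

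Of the 67 members, 32 had enough counts to be tested: 5 H1, 8 H2A, 9 H2B, 4 H3 and 6 H4 genes. Their mean levels ran from 0.142 to 25 CPM, and 21 of them lay under 1 CPM. A low gene passes such a filter more easily when 1 group is high, so counts over the tested members are descriptions. In edgeR's quasi-likelihood test with Benjamini-Hochberg adjustment over 18868 genes, none of the 32 was called at an adjusted p under 0.05. The same held for the background, with 0% of all genes called, and 0.116 was the lowest adjusted p. Limma-voom also called none of the members, and 0 of all genes tested. Among the 32, 12 members had higher and 1 had lower values with AMH at an unadjusted p under 0.05 (37.5% and 3.12%), beside 20.2% and 17.3% of all genes tested. The groups did not overlap in 13 members with higher and 1 with lower AMH values (40.6% and 3.12%), beside 26.9% and 23.3% of all genes. The median log2 fold change, AMH over control, was 0.84 over the 32 members, and -0.01 over all genes tested. It was positive in 19 members and negative in 13, beside 49.7% and 50.3% of all genes.

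The number of calls changed with the test and with the libraries used. DESeq2 called 9 members higher and none lower of 30 with an adjusted p, beside 16.4% and 6.29% of all genes. In edgeR without control 3, the calls were 6 members higher and 1 lower of 34, beside 26.8% and 11.2% of all genes. Without AMH 3 they were 4 higher and 0 lower of 34, beside 1.45% and 6.73%. Without both, 8 members were called higher and 2 lower of 34, beside 29.4% and 21.6% of all genes. Library size alone as the scale moved the median of all genes to 0.26 and that of the members to 1.17, and upper-quartile scaling moved them to -0.23 and 0.59.

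**Figure D2:**
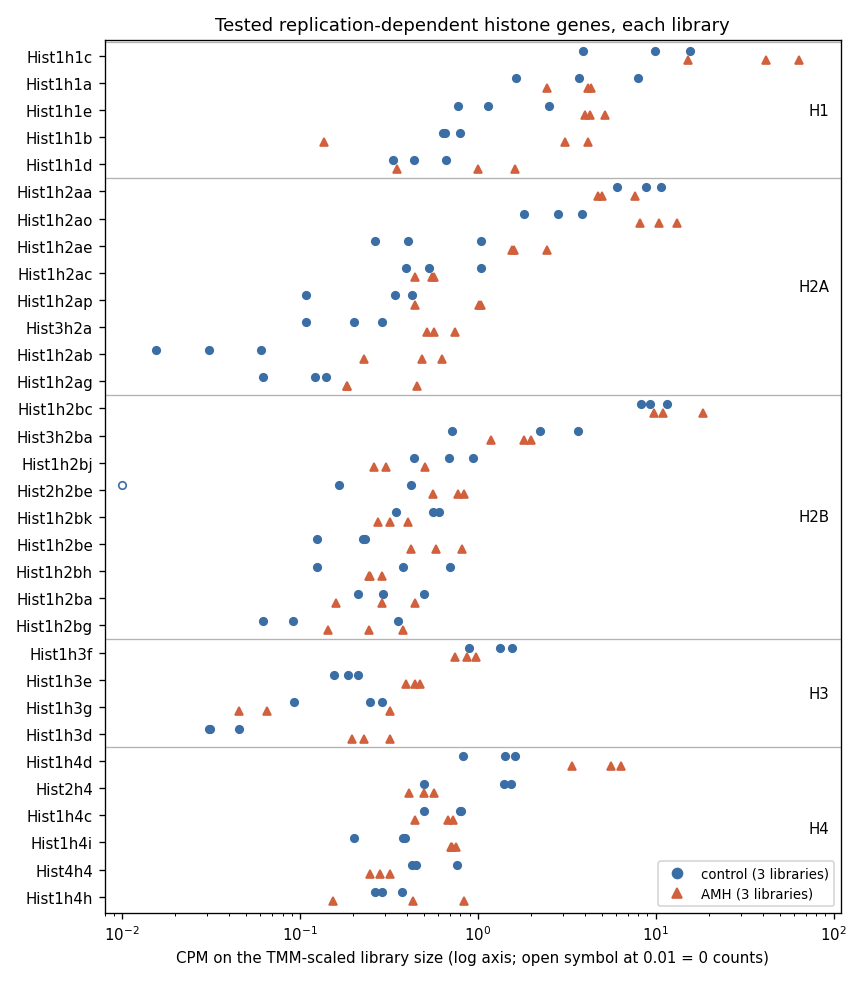
CPM on the TMM-scaled library size (log axis) of the 32 tested members in each library, controls as circles and AMH libraries as triangles, grouped by class and ordered by mean level. The open circle stands for 0 counts of Hist2h2be in control 2. The controls and AMH libraries of Hist1h2ao, Hist1h4d and Hist1h1e are apart, while those of Hist1h2aa, Hist1h2bc and Hist1h1a overlap.

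Over the 6 libraries the H1 sum was set mostly by Hist1h1c, though in control 2 Hist1h1a was higher (7.96 against 3.93 CPM). The summed level of the 6 members was 23.4, 13.8 and 13.6 CPM in controls 1, 2 and 3 against 79.1, 53.9 and 22.6 CPM in AMH 1, 2 and 3. AMH 3 lay just under control 1, so the groups overlapped. The means were 16.9 ± 5.59 and 51.9 ± 28.3 CPM (SD, n = 3 each), a ratio of 3.06, which was 3.58 without control 3 and AMH 3. AMH 3 over control 3 gave 1.66. Without Hist1h1c the H1 sums were 7.09 ± 3.09 and 11.6 ± 4.04 CPM (SD, n = 3 each), a ratio of 1.64, also with overlap. Among the 5 tested H1 genes 4 had a positive fold change, and the median log2 fold change was 1.61. The groups did not overlap in 1 of the 5, higher in AMH libraries, beside 26.9% of all genes.

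Hist1h1c (ENSMUSG00000036181, chr13:23738808-23740367), which codes for linker histone H1.2, had 15.7, 3.93 and 9.89 CPM in controls 1, 2 and 3 against 63.9, 41.5 and 15.3 CPM in AMH 1, 2 and 3. It held 72.8% of the H1 level over the 6 libraries. AMH 3 fell within the controls' range and AMH 1 was the highest library. Its log2 fold change was 2.03 with a standard error (SE) of 0.66, and the adjusted p of edgeR's quasi-likelihood test was 0.116. Over 16 alternatives the adjusted p ran from 0.0212 to 0.315 and was under 0.05 in 2, DESeq2 and edgeR without control 3 and AMH 3.

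Hist1h1e, the gene of H1.4, had 2.51, 0.779 and 1.14 CPM in controls and 5.21, 4 and 4.29 CPM in AMH libraries. All AMH values exceeded all control values, with a log2 fold change of 1.61 (SE 0.47, adjusted p 0.116 in edgeR). Over 16 alternatives the adjusted p ran from 0.0172 (DESeq2, the 1 under 0.05) to 0.315. Its model overlaps that of Hist1h2be and of the predicted gene Gm11398 on the same strand, so reads there may not be told apart. Hist1h1b, the gene of H1.5, had 0.791, 0.655 and 0.637 CPM in controls and 4.19, 3.09 and 0.137 CPM in AMH libraries. AMH 1 and AMH 2 were high and AMH 3 was the lowest of all libraries. The log2 fold change of 1.83 (SE 0.99, adjusted p 0.195 in edgeR) became 2.36 without AMH 3. Over 15 alternatives its adjusted p ran from 0.0151 to 0.589 and was under 0.05 in 2, both without AMH 3.

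Hist1h1a, the gene of H1.1, went its own way with 3.71, 7.96 and 1.64 CPM in controls and 4.14, 4.33 and 2.44 CPM in AMH libraries. The AMH values all lay inside the control range, and the log2 fold change was -0.29 (SE 0.58), or 0.03 when library size alone set the scale. Hist1h1t, the testis H1 gene, had 0 counts in all controls and 2 counts in all over the AMH libraries, under the 3 counts at which a fold is given.

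The H2A genes had higher summed levels in AMH libraries, though Hist1h2aa, the highest of them over the 6 libraries, did not. In controls Hist1h2aa had a mean of 8.52 CPM against 2.84 for Hist1h2ao, and in AMH libraries 5.78 against 10.6. The 18 members summed to 14.8, 14 and 11.4 CPM in controls 1, 2 and 3 against 22.5, 20.2 and 21 CPM in AMH 1, 2 and 3. The groups did not overlap, at 13.4 ± 1.78 and 21.2 ± 1.19 CPM (SD, n = 3 each), a ratio of 1.59. The median log2 fold change of the 8 tested genes was 1.55. The groups did not overlap in 6 of them, all higher in AMH libraries, beside 26.9% of all genes. At an unadjusted p under 0.05 in edgeR 5 were higher, beside 20.2% of all genes. When members that share most of their 50-base words with other genes were left out, the log2 ratio of the H2A sums turned from 0.67 to -0.18.

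Hist1h2ao (ENSMUSG00000094248, chr13:21810465-21810944), a canonical H2A gene, had 3.86, 1.82 and 2.82 CPM in controls and 13.2, 10.5 and 8.19 CPM in AMH libraries. The lowest AMH library was above the highest control. Its log2 fold change was 1.90 (SE 0.37), with an adjusted p of 0.116 in edgeR. Over 16 alternatives it ran from 0.00026 (DESeq2) to 0.315 and was under 0.05 in 4, among them edgeR without control 3 (0.0219) and without AMH 3 (0.046). Of its 50-base words 93.5% occur in another gene, most often Hist1h2ap, so its reads may be split with that copy.

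Hist1h2aa (ENSMUSG00000060081, chr13:23934462-23934851), which codes for the testis H2A variant TH2A that is also known from oocytes, had 8.79, 10.7 and 6.05 CPM in controls and 4.74, 4.98 and 7.61 CPM in AMH libraries. AMH 1 and AMH 2 were under every control, and AMH 3 was within their range. The log2 fold change was -0.56 (SE 0.33, adjusted p 0.224 in edgeR), and over 16 alternatives the adjusted p ran from 0.032 to 0.465, under 0.05 only in edgeR without control 3 and AMH 3. It held 41.3% of the H2A level over the 6 libraries and only 2.35% of its 50-base words are shared.

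Hist1h2ae had 0.403, 0.265 and 1.05 CPM in controls and 1.59, 1.56 and 2.46 CPM in AMH libraries, apart in all 6 libraries, with a log2 fold change of 1.70 (SE 0.57, adjusted p 0.116 in edgeR). Over 16 alternatives the adjusted p ran from 0.0176 (without control 3) to 0.315 and was under 0.05 in 3. Hist1h2ac had 0.66 ± 0.349 and 0.521 ± 0.0664 CPM (SD, n = 3 each), with the AMH values inside the control range. Hist1h2ab, named after its values were seen, had the highest fold change of the tested members. It had 0.031, 0.0156 and 0.0607 CPM in controls and 0.628, 0.484 and 0.229 CPM in AMH libraries, a ratio of 12.5 that rests on 110 counts in all. Of its 50-base words 58% occur in another gene, most often Hist1h2ai. Hist1h2ab had only 2, 1 and 4 counts in controls, so it passed the filter through the AMH libraries alone. Its log2 fold change was 3.58 (SE 0.70, adjusted p 0.116 in edgeR, 0.0724 in limma-voom, 0.0023 in DESeq2, 0.0198 without control 3 and 0.0414 without AMH 3). Hist3h2a, also named after its values were seen, had 0.2 ± 0.0896 and 0.61 ± 0.12 CPM (SD, n = 3 each), and its model overlaps Trim17 on the same strand.

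H2B genes did not separate as a class. The 18 members summed to 15.4, 17.6 and 10.9 CPM in controls and 23.5, 15.6 and 15.1 CPM in AMH libraries. The groups overlapped, with AMH 1 alone above every control, and the ratio of means was 1.23. Over the 9 tested genes the median log2 fold change was -0.17, with 4 positive and 5 negative values. It was 0.11 with library size alone as the scale. Other fits took in other sets of H2B genes, so their medians do not separate the fit from the genes. The median was 0.59 with no filter on low counts and 0.61 in DESeq2, each over the 17 members with a count. It was 0.19 without AMH 3, over 10 genes, and 0.20 without control 2, where the genes tested may also differ. The groups did not overlap in 2 of the 9 genes, both higher in AMH libraries, beside 26.9% of all genes.

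Hist1h2bc (ENSMUSG00000018102, chr13:23684199-23692908) held 69.8% of the H2B level and is 1 of 5 members with a spliced model. It had 9.35, 11.6 and 8.27 CPM in controls and 18.4, 11 and 9.8 CPM in AMH libraries, and the log2 fold change was 0.42 (SE 0.32, adjusted p 0.314 in edgeR). AMH 2 and AMH 3 were inside the control range. Hist3h2ba had 2.23, 3.65 and 0.713 CPM in controls and 1.18, 1.83 and 1.98 CPM in AMH libraries, and its log2 fold change of -0.40 (SE 0.59) turned to 0.16 without control 2. Hist1h2bj had 0.691 ± 0.253 CPM in control libraries against 0.357 ± 0.13 CPM with AMH (SD, n = 3 each), with overlap.

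Higher values without overlap were seen in Hist2h2be and Hist1h2be. Hist2h2be had 0.419, 0 and 0.167 CPM in controls and 0.776, 0.563 and 0.839 CPM in AMH libraries, with a log2 fold change of 1.88 (SE 1.03, adjusted p 0.198 in edgeR). Hist1h2be had 0.233, 0.125 and 0.228 CPM in controls and 0.813, 0.419 and 0.58 CPM in AMH libraries. Its log2 fold change of 1.62 (SE 0.48, adjusted p 0.116 in edgeR, and 0.0291 to 0.315 over 14 alternatives, under 0.05 in DESeq2 only) comes from a model that overlaps Hist1h1e.

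H3 genes were the lowest class. The 12 members summed to 2.05, 2.06 and 1.59 CPM in controls and 2.54, 1.81 and 2.18 CPM in AMH libraries, overlapping, with a ratio of 1.15. In log2 terms the ratio was 0.20, and it turned to -0.04 under upper-quartile scaling and to -0.18 without members of mostly shared words. The 4 tested genes fell into 2 with higher and 2 with lower AMH means.

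Hist1h3d had 0.031, 0.0312 and 0.0455 CPM in controls and 0.32, 0.196 and 0.229 CPM in AMH libraries, a ratio of 6.92 resting on 63 counts in all. With only 2, 2 and 3 counts in controls, it passed the filter through the AMH libraries alone. Its log2 fold change was 2.73 (SE 0.57, adjusted p 0.116 in edgeR). Over 13 alternatives the adjusted p ran from 0.03 to 0.315 and was under 0.05 in 2, both without control 3. Hist1h3e had 0.186, 0.156 and 0.212 CPM in controls and 0.394, 0.471 and 0.442 CPM in AMH libraries, apart in all libraries, with a log2 fold change of 1.23 (SE 0.41, adjusted p 0.116 in edgeR). Hist1h3f, which held 52.2% of the H3 level, ran the other way with 1.55, 1.34 and 0.895 CPM in controls and 0.973, 0.746 and 0.87 CPM in AMH libraries, overlapping (log2 fold change -0.55, SE 0.35). Of the 50-base words of Hist1h3e and Hist1h3f, 73.4% and 49.3% are shared, most often with each other. Hist1h3g had 0.21 ± 0.103 and 0.144 ± 0.153 CPM (SD, n = 3 each), with overlap.

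H4 genes summed to 5.26, 4.72 and 3.72 CPM in controls and 9.09, 9.17 and 5.81 CPM in AMH libraries. The groups did not overlap, at 4.57 ± 0.783 and 8.03 ± 1.92 CPM (SD, n = 3 each), a ratio of 1.76. The genes themselves were split: of 6 tested, 3 had positive and 3 negative fold changes. Without overlap, 2 were higher and 1 lower, beside 26.9% and 23.3% of all genes. The median of the tested H4 genes was 0.22, and it was -0.03 under upper-quartile scaling, -0.20 without AMH 1 and 0.49 without AMH 3.

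Hist1h4d (ENSMUSG00000061482, chr13:23581598-23582735) held 50.9% of the H4 level and had 1.61, 0.826 and 1.43 CPM in controls and 5.58, 6.37 and 3.4 CPM in AMH libraries. Every AMH library was above every control. The log2 fold change was 1.99 (SE 0.40), with an adjusted p of 0.116 in edgeR. Over 16 alternatives it ran from 0.000379 (DESeq2) to 0.315 and was under 0.05 in 4, among them edgeR without control 3 (0.0217) and without AMH 3 (0.0427). Only 10.2% of its 50-base words are shared.

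Hist1h4i had 0.202, 0.39 and 0.379 CPM in controls and 0.752, 0.707 and 0.717 CPM in AMH libraries, without overlap (log2 fold change 1.16, SE 0.41, adjusted p 0.118 in edgeR). Hist2h4 (ENSMUSG00000091405, chr3:96261682-96263311) had 1.41, 1.53 and 0.501 CPM in controls and 0.567, 0.497 and 0.412 CPM in AMH libraries. Controls 1 and 2 were high, and control 3 lay among the AMH libraries. Its log2 fold change was -1.22 (SE 0.49, adjusted p 0.126 in edgeR), and over 14 alternatives the adjusted p ran from 0.023 (without control 3) to 0.318, under 0.05 in 2, both without control 3. These 2 genes carry the same stem-loop letters, shown above. Hist1h4c had 0.701 ± 0.174 and 0.617 ± 0.153 CPM (SD, n = 3 each). Hist4h4, the only member on chromosome 6 and named after its values were seen, had 0.76, 0.452 and 0.425 CPM in controls and 0.283, 0.249 and 0.32 CPM in AMH libraries, the 1 tested member with every AMH library under every control.

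**Figure D3:**
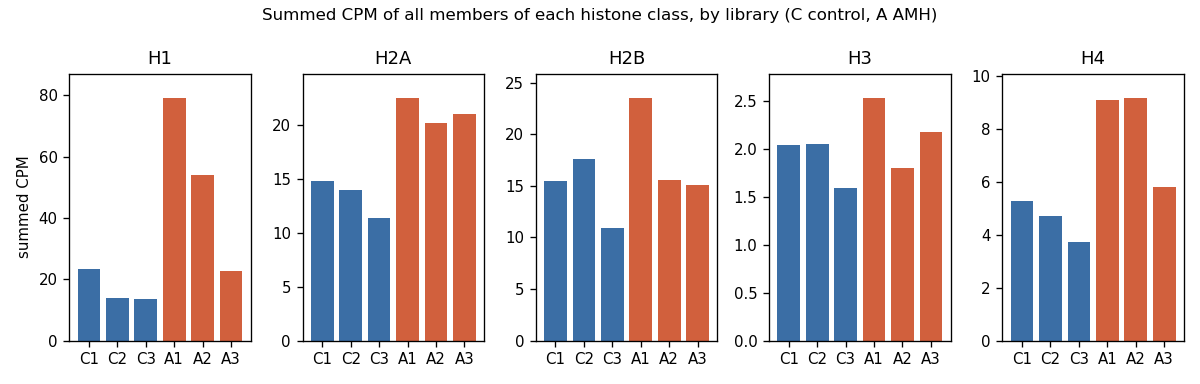
Summed CPM of all members of each class in each library (bars from 0, C1 to C3 control, A1 to A3 AMH, separate axes). The AMH bars all stand above the control bars in H2A and H4, while H1, H2B and H3 overlap.

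**Figure D4:**
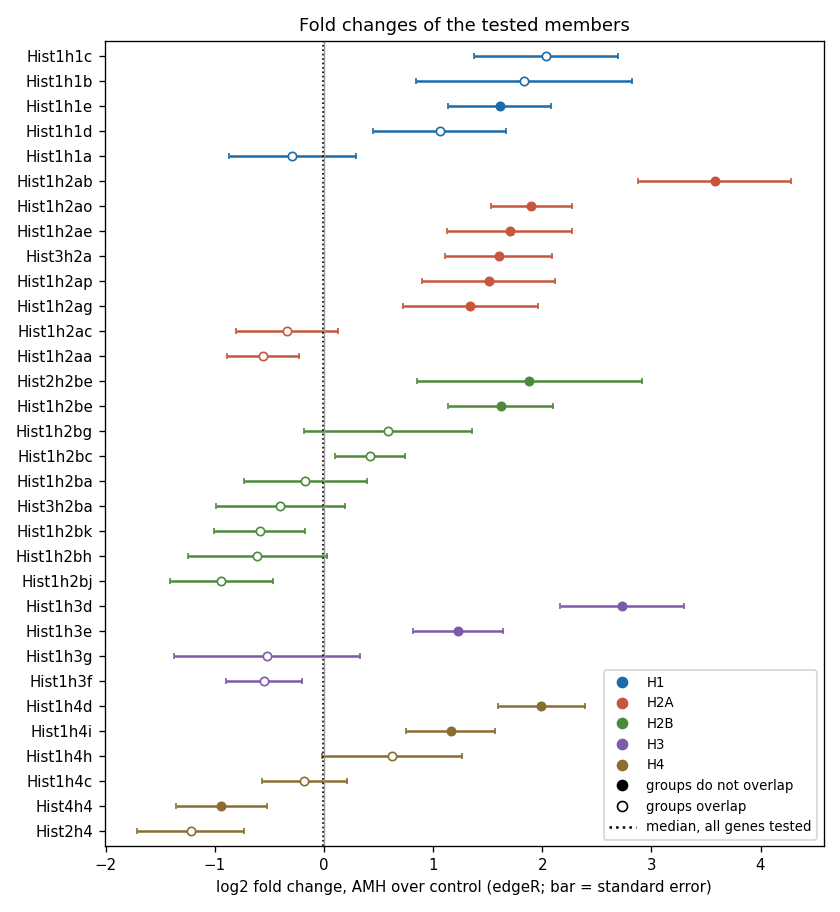
Log2 fold change of the 32 tested members, AMH over control, with the standard error of the edgeR fit as the bar, filled where the groups do not overlap. The values run from -1.22 (Hist2h4) to 3.58 (Hist1h2ab), and the dotted line marks the median of all genes tested, -0.01.

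Per kilobase of gene length the order of levels was Hist1h2aa, Hist1h1c, Hist1h2ao and Hist1h2bc, at means over 6 libraries of 18.3, 16.1, 14 and 9.88 CPM per kb. Hist1h1a followed at 5.45, Hist3h2ba at 3.15 and Hist1h4d at 2.82 CPM per kb. The order differed between the groups. In controls Hist1h2aa was first at 21.9 CPM per kb, ahead of Hist1h2bc at 8.43, Hist1h1c at 6.31, Hist1h1a at 5.99 and Hist1h2ao at 5.91. In AMH libraries Hist1h1c was first at 25.8, ahead of Hist1h2ao at 22.1, Hist1h2aa at 14.8 and Hist1h2bc at 11.3 CPM per kb. No test was made of these orders.

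The 28 members that had counts but were too low to test had at most 51 counts each over the 6 libraries. Together they had 58, 61 and 40 counts in controls 1, 2 and 3 against 149, 95 and 105 counts in AMH 1, 2 and 3. In CPM 22 of them had a higher mean with AMH and 6 a lower one (Hist1h2ah, Hist1h2bm, Hist1h3a, Hist1h4a, Hist1h4f and Hist1h4k). Of all 12809 untested genes with a count, 61.5% had a higher mean with AMH. Hist1h3i had 0, 1 and 0 counts in controls and 17, 5 and 9 in AMH libraries. Hist1h4m had 0 counts in every control and 14, 5 and 2 in AMH libraries. Hist1h4a had 10, 15 and 4 counts in controls and 2, 3 and 3 in AMH libraries. The median share of 50-base words held in common with another gene was 66.4% in these genes and 29.5% in the tested ones, and reads that match several genes may not have been counted.

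By position, 54 members lie in the Hist1 cluster of chromosome 13, in blocks of 23 and 31 genes that a gap of 1487374 bases separates, 10 in Hist2 on chromosome 3, 2 in Hist3 on chromosome 11 and 1 in Hist4 on chromosome 6. The Hist1 genes summed to 47 ± 8.41 CPM in control libraries against 97.3 ± 35.4 CPM with AMH (SD, n = 3 each), with no overlap. The Hist2 genes summed to 1.52 ± 0.602 and 1.47 ± 0.114 CPM, and the Hist3 pair to 2.4 ± 1.38 and 2.28 ± 0.458 CPM (SD, n = 3 each), with overlap in both. In 12 places an H2A and an H2B gene stand head to head with 176 to 306 bases between their starts, so that they share a promoter region. Both genes were tested in 4 of these pairs, and the fold changes had the same sign in 2. Hist1h2ae and Hist1h2bg had log2 fold changes of 1.70 and 0.59, and Hist1h2aa and the TH2B gene Hist1h2ba had -0.56 and -0.17. Hist1h2ag and Hist1h2bj had 1.34 and -0.94, and Hist1h2ac and Hist1h2bc had -0.34 and 0.42.

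Members were also compared by their annotated ends. Those with at least 100 bases past the stem-loop summed to 30.7, 15.7 and 18.9 CPM in controls and 85.9, 62 and 33.7 CPM in AMH libraries, a ratio of 2.78. Those with a stem-loop and fewer bases past it summed to 6.16, 4.29 and 4.84 CPM in controls and 17.2, 13.6 and 11.1 CPM in AMH libraries, a ratio of 2.75. The members with no stem-loop in the model summed to 24, 32.1 and 17.5 CPM in controls and 33.7, 25 and 21.8 CPM in AMH libraries, a ratio of 1.09. The first 2 sets did not overlap between the groups and the third did. Hist1h1c, Hist1h2ao and Hist1h2bc were the highest genes of the sets, in that order, and held 60.9, 70.5 and 44.4% of them. Without its highest gene the first set had means of 11.9 CPM in control and 20.3 CPM with AMH (ratio 1.7), the second 2.26 and 3.38 CPM (ratio 1.49) and the third 14.8 and 13.7 CPM (ratio 0.929). No test was made of the difference between these sets.

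The genes that make and handle histone mRNA were taken as a list of 17. At an unadjusted p under 0.05 in edgeR 3 of the 17 had higher and 5 lower values in AMH libraries, beside 20.2% and 17.3% of all genes. None was called after adjustment (2 higher and 1 lower in DESeq2, beside 16.4% and 6.29% of all genes), and the median log2 fold change was -0.36. Without control 3 and AMH 3, edgeR called 6 of the 17 higher and 8 lower, beside 29.4% and 21.6% of all genes. Slbp, which binds the stem-loop, had 2773, 2685 and 2088 CPM in controls and 1300, 1312 and 2040 CPM in AMH libraries. AMH 3 lay close under control 3 and the groups did not overlap (log2 fold change -0.70, SE 0.25, adjusted p 0.118 in edgeR). Casp8ap2, a protein of the histone locus body, had 278 ± 22.7 and 166 ± 41.7 CPM (SD, n = 3 each, log2 fold change -0.75), and the U7 snRNP protein gene Lsm11 had 117 ± 1.82 and 77 ± 16.2 CPM (log2 fold change -0.60). Upf1, needed for the decay of histone mRNA, had 1304 ± 113 and 831 ± 203 CPM. Lsm10, the partner of Lsm11 in the U7 snRNP and named after its values were seen, had 12.9 ± 1.07 and 20.9 ± 4.31 CPM (SD, n = 3 each). In the list 7 genes had positive and 10 negative fold changes. The summed oocyte markers, at 20704 ± 2963 and 12651 ± 4064 CPM, were also lower with AMH, and their part in the list was not tested.

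Replacement histones, whose mRNAs mostly carry poly(A) tails, were measured in all 12 genes of the list. At an unadjusted p under 0.05 in edgeR 4 of the 12 had higher and 1 lower values in AMH libraries, beside 20.2% and 17.3% of all genes. None was called after adjustment (3 higher and 0 lower in DESeq2, beside 16.4% and 6.29% of all genes), and the median log2 fold change was 0.57. Without control 3 and AMH 3, edgeR called 5 of the 12 higher and 2 lower, beside 29.4% and 21.6% of all genes. The oocyte linker histone gene H1foo was far above any replication-dependent gene, at 9446, 10190 and 8121 CPM in controls and 5091, 4685 and 7665 CPM in AMH libraries. The groups did not overlap, with a log2 fold change of -0.67 (SE 0.25, adjusted p 0.12 in edgeR). Its 6272 CPM per kb over all libraries compares with 16.1 for Hist1h1c. Of the H3.3 genes, H3f3b had 1218 ± 165 and 917 ± 141 CPM with overlap, and H3f3a had 147 ± 3.84 and 184 ± 16.6 CPM without overlap (SD, n = 3 each). H2afv, an H2A.Z gene, had 20.3 ± 8.89 and 49.1 ± 5.46 CPM, and H2afy, the macroH2A1 gene, had 31.7 ± 12.8 and 62.3 ± 6.55 CPM (SD, n = 3 each), both without overlap.

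Histone chaperones, which carry histones to chromatin, had 1 gene higher and 11 lower of 22 at an unadjusted p under 0.05 in edgeR, beside 20.2% and 17.3% of all genes, and a median log2 fold change of -0.54. Rbbp7 had 4060 ± 240 and 2677 ± 717 CPM, and Mcm2, a helicase subunit that also binds H3 and H4, had 775 ± 74.3 and 491 ± 168 CPM (SD, n = 3 each). Ubn1 of the HIRA complex had a log2 fold change of -0.62 and Daxx, an H3.3 chaperone, of -0.53. Among 30 genes of S phase and proliferation, 0 had higher and 14 lower values at that p, beside the same shares of all genes, and the median log2 fold change was -0.51. Ccna2 had 584 ± 26.6 and 387 ± 121 CPM, E2f1 471 ± 35.4 and 270 ± 70.5 CPM, and Ticrr 466 ± 44.2 and 251 ± 69 CPM (SD, n = 3 each), all without overlap. Pcna and Mki67, genes of dividing cells, had 155 ± 9.8 and 117 ± 27.3 CPM and 98.2 ± 31.9 and 68.8 ± 16.3 CPM, with overlap in both. None of the chaperone or S phase genes was called after adjustment in edgeR with all 6 libraries. DESeq2 called 0 chaperone genes and 4 S phase genes, all 4 lower, beside 6.29% of all genes called lower. Without control 3 and AMH 3, edgeR called 2 chaperone genes higher and 14 lower, and 1 S phase gene higher and 17 lower. The shares of all genes in that fit were 29.4% and 21.6%. The sums of both lists were lower in AMH libraries, at ratios of 0.676 and 0.655, and AMH 3 was the AMH library nearest the controls in each. The summed oocyte markers had a ratio of 0.611, with AMH 3 again nearest the controls, and their part in these lists was not tested. Under upper-quartile scaling the medians of the processing, chaperone and S phase lists were -0.59, -0.77 and -0.75, and with library size alone they were -0.08, -0.27 and -0.23.

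**Figure D5:**
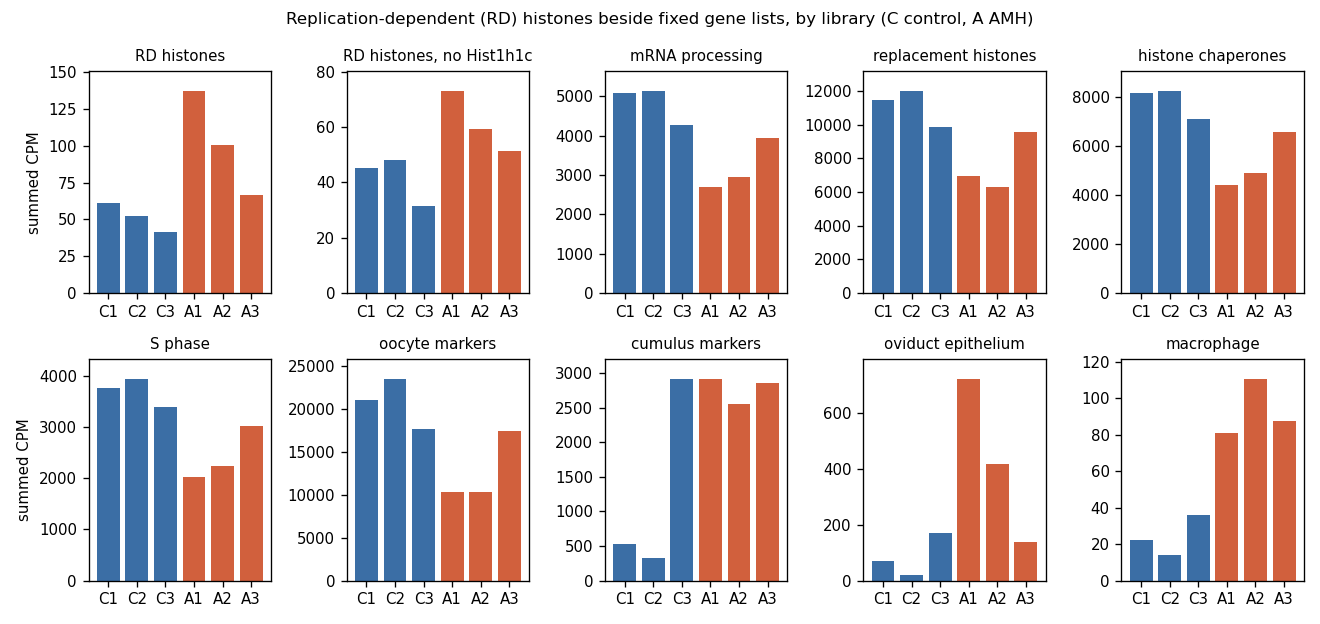
Summed CPM in each library (bars from 0, C1 to C3 control, A1 to A3 AMH, separate axes) of the replication-dependent (RD) histones with and without Hist1h1c, 4 gene lists and 4 marker lists. The processing, replacement, chaperone and S phase sums were lower in all AMH libraries than in any control, though 80.5% of the replacement sum is H1foo and 8 of its 12 genes had positive fold changes. The histone sum and the macrophage markers were higher in all AMH libraries, while cumulus markers were low in controls 1 and 2 only.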

How the data were processed

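The authors deposited whole-number counts and FPKM values per Ensembl gene for 6 libraries of oocyte RNA, amplified with a SMART v4 kit, per the labels. The submitters' processing notes name HISAT2 (2.0.5), featureCounts (1.5.0-p3), DESeq2 (1.20.0), mm10 and GRCm38. What each was used for, and the strand setting, is not given in the sources used here. Reads of near-identical copies or of genes overlapping on opposite strands may therefore be uncertain, and 21 members overlap an antisense gene. The deposited FPKM equals the count over gene length and 1 effective size per library.

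Counts were tested with edgeR 4.0.16 (R 4.3.3; quasi-likelihood, robust, TMM, default filterByExpr, group only) with Benjamini-Hochberg adjustment at 0.05. CPM is on the TMM-scaled library size. Alternatives were DESeq2 1.42.0, limma 3.58.1 (voom, and log2(FPKM + 1) in genes above 1 FPKM in 3 libraries), other scalings and filters, a replicate block and left-out libraries. Scalings and left-out libraries for class sums were added after the data were seen. Simulated counts served as a test of the main edgeR fit only, not of DESeq2 or limma. No library pair agreed within sampling noise (chi-square per degree of freedom of at least 55.9).

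The members and lists were chosen with earlier results of these data known. Named genes were, per class, the 4 highest by mean CPM and the 1 of smallest p, and per list the 2 highest and 2 of smallest p, with Slbp, H1foo, H3f3a, H3f3b, Mki67 and Pcna always named. Others were named after their values were seen. All 67 member positions equal those of GENCODE M21.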

Additional observations from a re-analysis of the deposited data

How the results depend on the processing

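Depth limits most members: 21 of the 32 tested lay under 1 CPM. Of 39 genes named by rule, 34 kept their direction under every alternative, while Hist1h1a turned to 0.03 and Hist1h4c to 0.12 with library size alone, Hist1h2ac to 0.16 without control 1, Hist1h1a to 0.43 and Hist3h2ba to 0.16 without control 2, and Hist1h3g to 0.19 without control 3 and AMH 3 (log2 fold changes). With 1 library left out, Hist1h1a ranged from -0.69 to 0.43, Hist1h2ac from -0.61 to 0.16 and Hist3h2ba from -0.83 to 0.16, each lowest without control 3. The members' median was 1.19 with no filter on low counts and 1.18 in DESeq2, beside 0.22 and 0.24 over all genes. Those 2 medians cover all 60 members with a count, many of them too low for the main test, and not the 32 tested. The members' median ranged from 0.50 to 0.97 when 1 library was left out, lowest without control 3 or AMH 1. DESeq2 called 2960 genes higher and 1135 lower, 9 members among the higher, and edgeR without control 3 and AMH 3 called 5693 higher and 4192 lower, with 8 and 2 members. With 1 library left out, 0 to 5291 genes were called higher and 0 to 2222 lower, the most without control 3 (285 and 1322 without AMH 3), and 0 to 6 members higher and 0 to 1 lower. The H2A log2 ratio of sums was 0.95 with library size alone, 0.43 with upper-quartile scaling and -0.18 without members of mostly shared words, and the H3 ratio was 0.48, -0.04 and -0.18. The cause was not tested. Class sums of H1, H2B and H4 moved by less than the spread between libraries under every alternative run. Same-numbered libraries did not deviate together (r of 0.0596, -0.103 and -0.25), and with the replicate block edgeR called 0 genes and the members' median was 0.86.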
